A study of Mus musculus with 24 samples.

Results

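Elastic fibre and microfibril genes encode the extensible part of the extracellular matrix, and 10 of them were followed here among the 36528 gene models of the deposited files: Eln, Fbn1, Mfap2, Mfap4, Mfap5, Emilin1, Fbln1, Fbln2, Fbln5 and Mgp. The family was chosen by function together with measured values: Mgp had been noted as lower and Fbln1 as higher after polyethylene glycol in fibroblastic reticular cells. All values of the members in that contrast are therefore given as a description with no test. The files identify the genes by Entrez gene number, which is 13717 for Eln, 14118 for Fbn1, 17150 for Mfap2, 76293 for Mfap4, 50530 for Mfap5, 100952 for Emilin1, 14114 for Fbln1, 14115 for Fbln2, 23876 for Fbln5 and 17313 for Mgp.

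The data are RNA-seq libraries of cells sorted from mouse Peyer's patches, the lymphoid tissue of the small intestinal wall, with 1000 cells sorted for each mouse and 24 libraries in all. Fibroblastic reticular cells (FRC), the stromal cells that build the reticular network, gave 7 libraries from unperturbed mice (control) and 7 from mice that drank 10% (w/v) polyethylene glycol (PEG) freely for 3 days to reduce fluid flow. Endothelial cells of high endothelial venules (HEV), the vessels through which lymphocytes enter the tissue, gave 4 control and 6 PEG libraries. The labels name neither genotype, strain, age nor sorting markers, and do not say whether an FRC and an HEV library came from the same mouse.

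In textbook terms, an elastic fibre has a core of crosslinked elastin laid down on a scaffold of fibrillin microfibrils, with fibulins, microfibril-associated proteins and emilins at the interface. Lysyl oxidases crosslink the elastin, latent TGF-beta binding proteins anchor growth factor to the microfibrils, and matrix Gla protein, which needs vitamin K for its carboxylation, keeps elastic tissue from calcifying. In lymphoid organs, reticular fibroblasts ensheathe a network of matrix conduits that carries fluid towards the high endothelial venules.

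By fibroblast and pan-endothelial markers the sorted populations matched their labels. Fibroblast markers (8 genes, all detected in each FRC library) summed to 24954 to 39029 CPM (read counts scaled to one fixed total per library) in FRC libraries and to 6.26 to 522 CPM in HEV libraries. Pan-endothelial markers summed to 7100 to 10617 CPM in HEV libraries and to 89.1 to 299 CPM in FRC libraries. FRC libraries also held 2838 to 4391 CPM of smooth muscle markers, and the part of muscle-like cells in the FRC values was not tested. Intestinal epithelial markers (12 genes) summed to 45.2 to 2063 CPM in FRC control and 82.6 to 5190 CPM in FRC PEG libraries. In HEV libraries they summed to 16.5 to 579 CPM in control and 41.6 to 3693 CPM in PEG libraries. Their part in the member values was not tested. Libraries held 12416032 to 21710946 assigned reads, except HEV PEG library 16 with 3115003. In bulk samples, fewer cells of a type and less RNA per cell cannot be told apart.

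Upstream sequences are shown for 3 members: Fbln1 and Mfap2, which were close to 0 in most HEV libraries, and Fbln5, which was well expressed in HEV cells. Each run holds the 250 bases before a RefSeq transcription start (GRCm38.p6), 5′ to 3′ on the strand of the gene. Capitals mark matches to AGGAAG, a core that ETS factors bind, on either strand. The windows are chr15:85205699-85205948 (plus strand) for Fbln1, chr4:141010174-141010423 (plus strand) for Mfap2 and chr12:101819120-101819369 (minus strand) for Fbln5.
Fbln1: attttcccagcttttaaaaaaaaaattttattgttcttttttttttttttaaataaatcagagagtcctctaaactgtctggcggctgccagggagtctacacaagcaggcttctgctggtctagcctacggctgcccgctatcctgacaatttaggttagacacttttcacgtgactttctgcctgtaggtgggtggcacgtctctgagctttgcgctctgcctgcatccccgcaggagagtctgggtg
Mfap2: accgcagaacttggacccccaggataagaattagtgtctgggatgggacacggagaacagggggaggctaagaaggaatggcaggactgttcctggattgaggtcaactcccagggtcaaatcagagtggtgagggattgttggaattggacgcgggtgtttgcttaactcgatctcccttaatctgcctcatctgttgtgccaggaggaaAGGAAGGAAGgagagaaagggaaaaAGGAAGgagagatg
Fbln5: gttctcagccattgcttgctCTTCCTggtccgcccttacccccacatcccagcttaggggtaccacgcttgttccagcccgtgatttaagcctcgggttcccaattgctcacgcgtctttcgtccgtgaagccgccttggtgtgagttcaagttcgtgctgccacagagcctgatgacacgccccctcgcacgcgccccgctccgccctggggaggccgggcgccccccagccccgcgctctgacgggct
AGGAAG was matched 3 times in the Mfap2 window (overlapping matches counted), 1 time in the Fbln5 window and at no place in the Fbln1 window. The window of Fbln2, the member with the highest HEV level relative to FRC cells, is not shown and held no match. The same search matched 29.5% of 32851 promoter windows of this length. The GC content was 46.4% for Fbln1, 51.2% for Mfap2 and 65.2% for Fbln5, beside a median of 52.4% over all windows. RefSeq lists 2 starts for each of these 3 genes, and the more upstream one is shown. The window of the other start held no match in any of the 3 genes, and its GC content was 62.4% for Fbln1, 68.8% for Mfap2 and 49.6% for Fbln5, so that the match counts and the side of the median depend on the start chosen. A match is a description of letters, and neither its presence nor its absence here says anything of factor binding.

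The first comparison asked how far the family separated the matrix-building fibroblasts from the venule endothelium. In control libraries 9 of 10 members were lower in HEV than in FRC cells and 0 were higher, by the edgeR quasi-likelihood test at a Benjamini-Hochberg adjusted p under 0.05. Of the 15743 genes tested, 24.6% were called, 14.2% as lower and 10.4% as higher. The median log2 difference of the members, HEV minus FRC, was -5.43, beside -0.16 over all genes tested. All 10 members passed the filter on low counts. Those near 0 in HEV cells passed through their FRC libraries, so a call of these could only be lower. The plot of member levels by library shows the separation gene by gene.

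**Figure D1:**
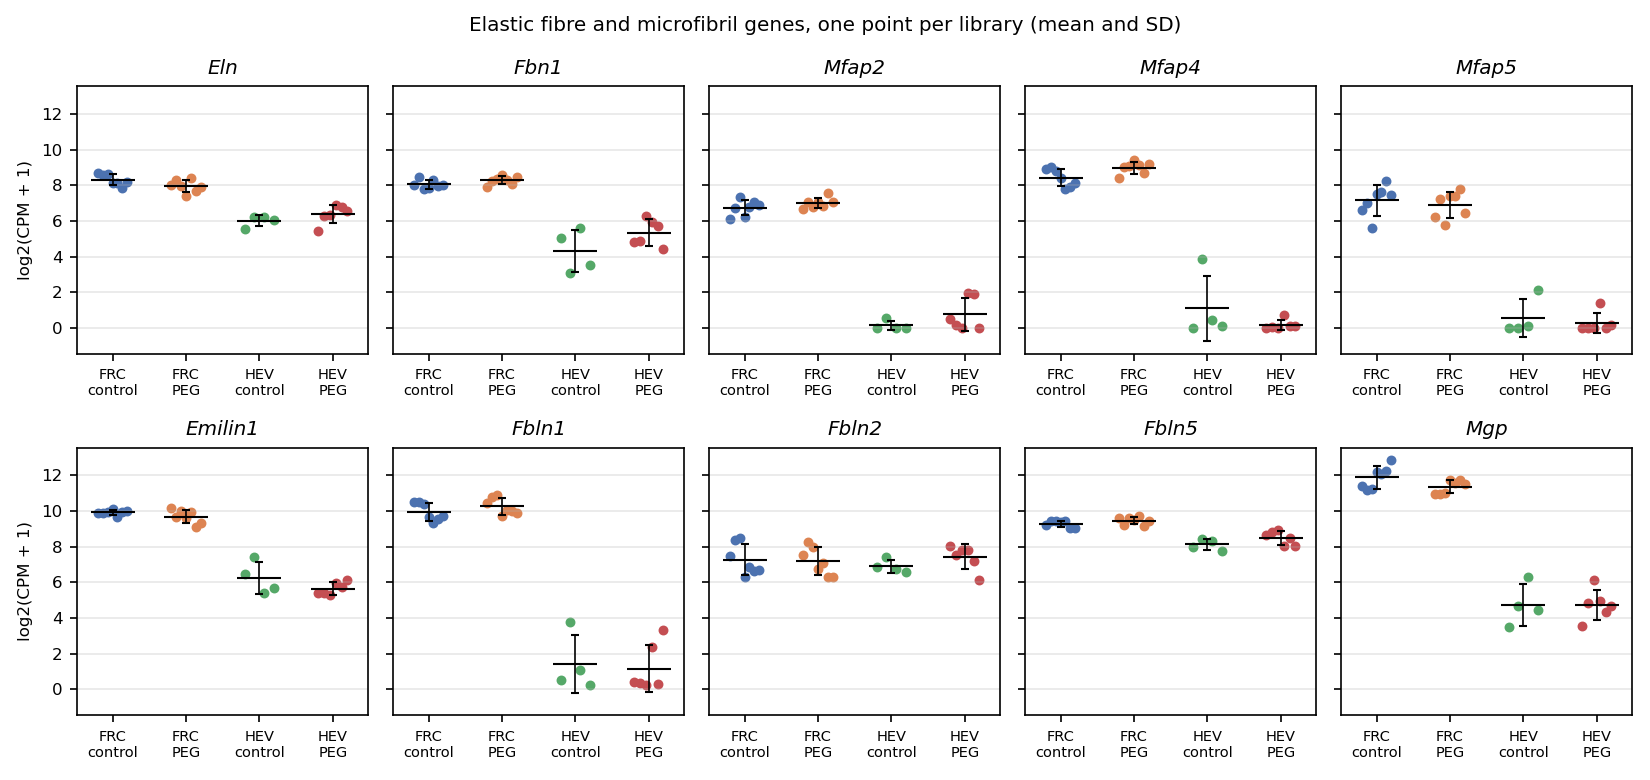
Each panel plots 1 gene as log2(CPM + 1) in every library of the 4 groups (points), with the group mean and SD (black). Mfap2, Mfap4, Mfap5 and Fbln1 sit near 0 in most HEV libraries, Fbln2 overlaps between the cell types, and the other genes lie lower in HEV libraries. Single HEV libraries stand off 0, among them control library 9 (Mfap4 at 3.85, Fbln1 at 3.79) and PEG library 23 (Fbln1 at 3.33).

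Eln encodes tropoelastin, the soluble precursor of the elastin core. Its level in FRC control libraries ran from 229 to 407 CPM with a median of 286, and the 4 HEV control libraries held 46.0, 72.8, 74.3 and 64.1 CPM. No HEV library reached the lowest FRC library. The log2 difference was -2.19 ± 0.25 (SE; adjusted p = 6.04e-05, edgeR), and HEV cells thus kept a clear Eln signal of 727 to 1250 reads in a library.

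Fbn1 encodes fibrillin-1, the main structural unit of the microfibril. FRC control libraries ran from 219 to 351 CPM with a median of 253, and HEV control libraries held 31.6, 7.52, 47.0 and 10.7 CPM. HEV libraries differed widely among themselves and all lay below the FRC range. HEV minus FRC gave a log2 difference of -3.51 ± 0.51 (SE; adjusted p = 0.00034, edgeR).

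Emilin1, a glycoprotein at the interface of elastin and microfibrils, had the smallest spread relative to its mean of the 10 members in FRC control libraries, from 798 to 1102 CPM with a median of 976. HEV control libraries held 88.6, 168, 41.1 and 50.2 CPM, library 9 being the highest. On the log2 scale the difference was -3.51 ± 0.33 (SE; adjusted p = 1.14e-05, edgeR).

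The 3 microfibril-associated genes were close to 0 in most HEV libraries. Mfap2, which encodes a small protein bound to fibrillin, ran from 69.1 to 160 CPM in FRC control libraries with a median of 111. It had 8 reads in HEV control library 9 and 0 in the other HEV control libraries. Mfap4, an integrin-binding microfibril protein, ran from 223 to 525 CPM in FRC control libraries with a median of 344. Of its 236 reads in HEV control libraries, 230 lay in library 9. Mfap5, a partner of fibrillin, ran from 47.5 to 304 CPM in FRC control libraries with a median of 171. Of its 49 reads in HEV control libraries, 48 lay in library 24. All 3 were called lower, with log2 differences of -9.80 ± 0.94 for Mfap2, -8.11 ± 1.48 for Mfap4 and -8.62 ± 1.26 for Mfap5 (SE). These sizes rest on few HEV reads and on the prior of the fit.

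Without HEV control library 9, the fitted difference became -13.87 for Mfap2 and -11.13 for Mfap4, and without library 24 that of Mfap5 became -12.46, all still called. Library 9 also had the highest summed fibroblast markers of the HEV libraries, 522 CPM, and the highest smooth muscle markers, 478 CPM. Their part in the Mfap4 and Mfap2 reads of that library was not tested.

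The 3 fibulins did not behave alike. Fbln1, a fibulin found along elastic fibres and basement membranes, ran from 654 to 1480 CPM in FRC control libraries with a median of 833. HEV control libraries held 0.443, 12.8, 1.09 and 0.208 CPM, and library 9 contributed 220 of the 246 reads. Fbln1 differed by -8.84 ± 1.17 on the log2 scale (SE; adjusted p = 0.00033, edgeR), and -10.69 without HEV control library 9.

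Fbln5, which tethers elastin to microfibrils and to cell surface integrins, ran from 523 to 692 CPM in FRC control libraries with a median of 666. HEV control libraries held 254, 347, 318 and 218 CPM. Every HEV library was below every FRC library, and its log2 difference was the smallest in size of the 9 called members. Fbln5 differed by -1.04 ± 0.17 on the log2 scale (SE; adjusted p = 0.00096, edgeR). Among libraries 10 to 24 alone it was -0.85 with an adjusted p of 0.067 by edgeR. That subset keeps only libraries 17 and 24 of the HEV controls.

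Fbln2, a fibulin of vessel walls that binds elastin and fibrillin, was the exception. FRC control libraries ran from 78.6 to 365 CPM with a median of 114, and HEV control libraries held 114, 169, 106 and 95.6 CPM. The HEV values lay inside the FRC range. The log2 difference was -0.03 (95% interval -0.79 to 0.73; adjusted p = 0.96, edgeR), and a difference within that interval could not be told from 0.

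Mgp, the matrix Gla protein, was the most abundant member in FRC cells, from 2339 to 7550 CPM in control libraries with a median of 4403. HEV control libraries held 10.1, 24.6, 76.6 and 21.0 CPM. The lowest FRC library was still far above the highest HEV library. The log2 difference was -7.35 ± 0.44 (SE; adjusted p = 3.18e-07, edgeR), the smallest p of the members and the 79th of all genes tested.

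**Figure D2:**
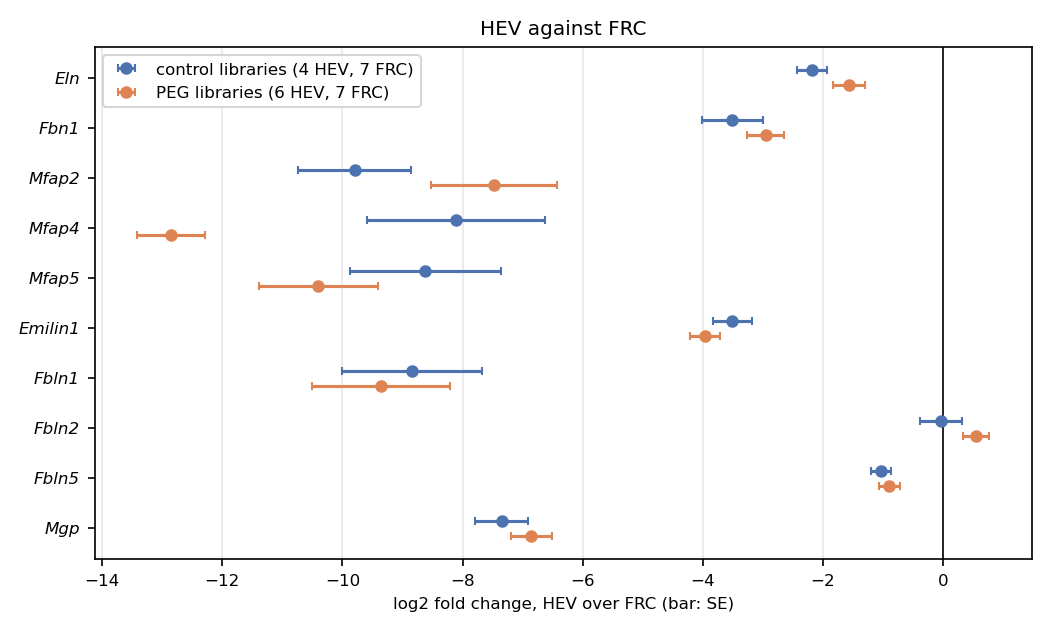
Points give the fitted log2 fold change of HEV over FRC for each member, with its SE as a bar, among control libraries (blue; 4 HEV, 7 FRC) and among PEG libraries (orange; 6 HEV, 7 FRC). 9 of 10 members lie below 0 in both sets, and Fbln2 lies at -0.03 and 0.55.

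PEG libraries gave the same contrast in samples that share no library with the controls. Again 9 of 10 members were called lower in HEV cells and 0 higher by edgeR, beside 26.8% of 14991 genes called, 14.4% lower and 12.5% higher. In both comparisons Fbln2 was the 1 member not called. The median of the members was -5.41, beside -0.08 over all genes tested. Eln differed by -1.57 ± 0.27, Fbn1 by -2.96 ± 0.30, Emilin1 by -3.97 ± 0.25, Fbln5 by -0.89 ± 0.18 and Mgp by -6.85 ± 0.34 on the log2 scale (SE). In this set every HEV library has the same i5 sequencing index and every FRC library another, so cell type and index cannot be told apart. Among controls, where both indices occur in both cell types, 9 members stayed called with the index as a term.

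The microfibril-associated genes were again at the floor of detection in HEV PEG libraries. Mfap4 had 5 reads over the 6 libraries and Mfap5 had 7, of which 5 lay in the shallow library 16. Mfap2 had 51 reads, of which 35 lay in library 22. Fbln1 had 160 reads, of which 131 lay in library 23. All 4 genes were called lower, with log2 differences from -7.48 for Mfap2 to -12.85 for Mfap4. They passed the filter on low counts through their FRC libraries, so a call could only be lower. The sizes rest on few HEV reads and on the prior of the fit.

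Fbln2 tended the other way under PEG. FRC PEG libraries ran from 77.6 to 310 CPM with a median of 137, and HEV PEG libraries ran from 69.0 to 265 CPM with a median of 206. The ranges overlapped almost fully. The log2 difference was 0.55 ± 0.22 (SE; adjusted p = 0.084, edgeR) and was not called. Without HEV PEG library 23, the lowest HEV library, it was 0.73 and called (adjusted p = 0.019).

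Expressed as a share of the mean FRC level under the same treatment, the members fell into a wide range over the 10 HEV libraries. The median share was 91.1% for Fbln2 (42.4% to 162%), 51.1% for Fbln5 (34.7% to 70.3%) and 27.0% for Eln (14.2% to 46.1%). It was 10.5% for Fbn1 (2.82% to 24.6%) and 5.69% for Emilin1 (4.22% to 17.3%). Mgp had a median share of 0.808% (0.245% to 2.54%) and Fbln1 of 0.0337% (0.0156% to 1.23%). Mfap2, Mfap4 and Mfap5 had medians of 0.043%, 0.014% and 0% and highest values of 2.22%, 3.72% and 2.07%. For Fbln2 the share was 52.7% to 93.3% in control and 42.4% to 162% in PEG libraries. Its FRC mean joins pools of libraries with unlike levels, given below.

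The share was computed in the same way for summed markers of fibroblasts, smooth muscle and pericytes. The summed level of fibroblast markers in HEV libraries had a median of 0.0862% of the FRC mean and a range of 0.0210% to 1.69%. Fbln2, Fbln5, Eln and Emilin1 lay above the highest share of any single fibroblast marker in 10 of 10 HEV libraries. Fbn1 did so in 9 libraries, Mgp in 8, Mfap2 in 3, Fbln1 and Mfap5 in 2 and Mfap4 in 1. Fbln1 lay above the fibroblast sum in only 3 of 10 libraries.

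Smooth muscle and pericyte markers took larger shares, and these were computed after the data were seen. Smooth muscle markers (8 genes) summed to a median of 2.07% of the FRC mean over the HEV libraries (0.0654% to 13.0%), and pericyte markers (6 genes) to 2.69% (0.178% to 6.16%). Fbln2, Fbln5 and Eln lay above both sums in 10 of 10 HEV libraries. Fbn1 lay above the smooth muscle sum in 8 libraries and above the pericyte sum in 10, and Emilin1 in 8 and 9. In HEV control library 9, smooth muscle markers stood at 13.0%, Emilin1 at 17.3% and Fbn1 at 2.82%. Mgp lay above the smooth muscle sum in 3 libraries and above the pericyte sum in 1, and Fbln1 in none of the 10. The part of muscle and pericyte RNA in the HEV values was not tested.

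**Figure D3:**
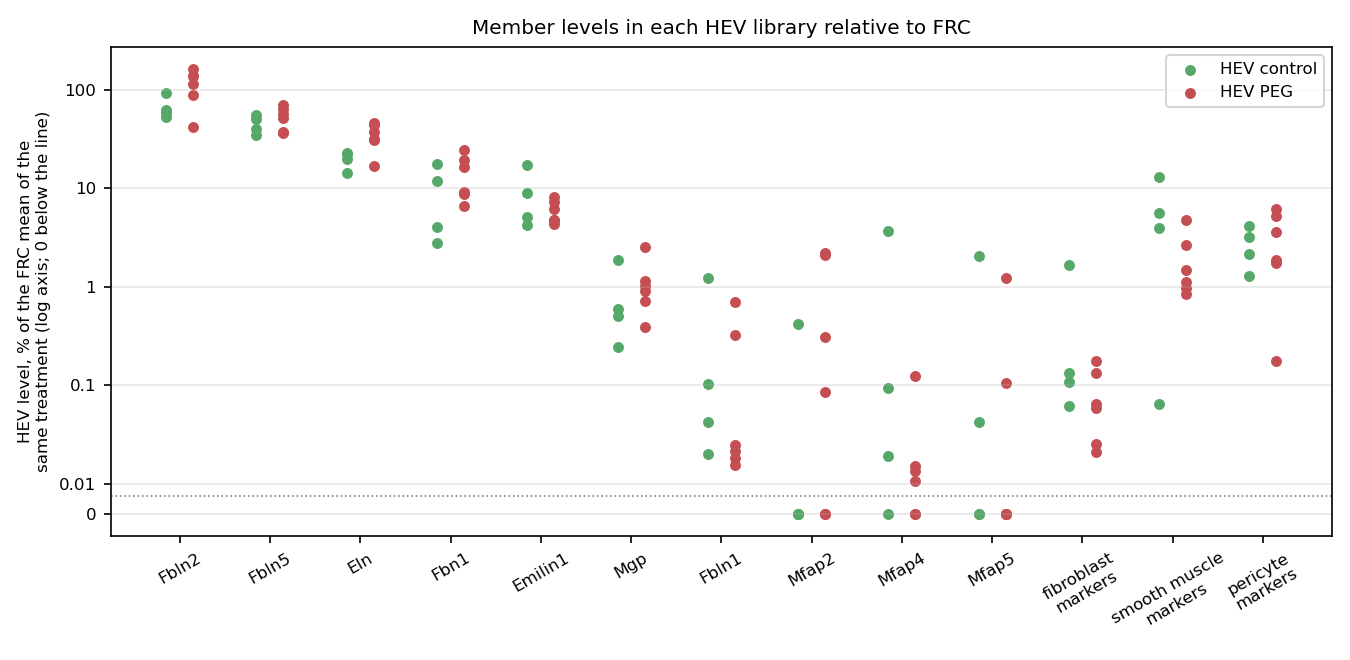
Each point is 1 HEV library, with the level of a member as a percentage of the mean FRC level under the same treatment (log axis; values of 0 are drawn below the dotted line). The 3 columns on the right give the summed markers of fibroblasts, smooth muscle and pericytes. Fbln2, Fbln5 and Eln lie at 14.2% and above in all 10 libraries, the fibroblast markers at 1.69% and below, the smooth muscle markers at up to 13.0% and the pericyte markers at up to 6.16%.

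Compared between genes per transcript length, on the authors' RPKM scale, the order of levels differed between the cell types. The length behind RPKM matched annotated exon length within 1.5-fold for 84.2% of 9632 genes checked. Orders of members closer than that within a group are therefore uncertain. In FRC control libraries Mgp led at 5250 ± 2333 RPKM (SD, n = 7) and was above the next member in 7 of 7 libraries. Fbln1 (208 ± 75.2), Emilin1 (192 ± 20.0) and Mfap4 (168 ± 59.7) followed within each other's spread. Mfap5 (80.1 ± 40.1), Fbln5 (78.1 ± 9.88) and Eln (59.7 ± 14.1) formed the middle, with Eln above Mfap2 in 7 of 7 libraries. Mfap2 (34.9 ± 10.4), Fbln2 (30.2 ± 20.3) and Fbn1 (20.4 ± 3.84) came last, and these neighbours did not differ beyond their spread.

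In HEV control libraries Mgp had the highest mean, 43.5 ± 39.9 RPKM (SD, n = 4), but was above Fbln5 (36.1 ± 7.65) in only 1 of 4 libraries. Fbln2 (20.3 ± 5.38), Emilin1 (17.4 ± 11.4) and Eln (12.1 ± 2.47) came next. Fbn1 stood at 1.91 ± 1.49 RPKM. In HEV PEG libraries Fbln5 led at 46.5 ± 11.3 RPKM (SD, n = 6), followed by Mgp at 38.2 ± 25.1 and Fbln2 at 30.8 ± 12.0. Mean RPKM of Eln was above that of Fbn1 in all 4 groups. Exons of Eln, Fbn1 and Mfap4 overlap on the opposite strand with Gm30003, Gm9913 and Mapk7 in the GRCm38 annotation, and the counts carry no strand, so reads of each pair cannot be told apart.

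Genes that build, tether and degrade elastic fibres were read from lists of the pathway in the same control comparison. Of all genes tested there, 14.2% were called lower and 10.4% higher in HEV cells. List genes near 0 in one cell type passed the filter on low counts through the libraries of the other. For those genes a call could only fall in that direction, so the counts of calls below are a description. All 5 lysyl oxidases, the enzymes that crosslink elastin, were lower in HEV cells by edgeR. Loxl1 stood at 160 ± 43.3 CPM in FRC (SD, n = 7) and 0.0766 ± 0.0725 CPM in HEV control libraries (SD, n = 4). Loxl2 stood at 148 ± 24.3 and 1.38 ± 2.09 CPM, and Loxl4 at 17.4 ± 4.99 and 0.299 ± 0.235 CPM, respectively. All 5 were also called lower among PEG libraries. When only HEV libraries were compared, 2 of the 5 passed the filter.

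Of 8 tested genes (of 10 listed) for other elastic fibre and microfibril proteins, 4 were lower and 1 was higher in HEV cells. Fbln7 was at 196 ± 35.6 CPM in FRC and 0.115 ± 0.0670 CPM in HEV control libraries. Efemp2, the fibulin needed for elastin crosslinking, was at 365 ± 108 and 4.82 ± 8.19 CPM, and Fbn2, another fibrillin, at 16.0 ± 4.99 and 0.0741 ± 0.110 CPM. Efemp1 was the other gene called lower. Mmrn2, an endothelial member of the emilin family, was the gene called higher, at 1097 ± 365 CPM in HEV against 7.98 ± 6.16 CPM in FRC control libraries (SD; log2 difference 7.39 ± 0.87 SE).

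Latent TGF-beta binding proteins were lower for 3 of 4 genes: Ltbp1 by -3.82 ± 0.40, Ltbp3 by -3.34 ± 0.31 and Ltbp4 by -2.54 ± 0.26 on the log2 scale (SE, edgeR). Of 9 genes of microfibril processing and assembly, 4 were lower and 0 higher, led by Fn1, the fibronectin on which microfibrils assemble, at 889 ± 267 CPM in FRC and 1.41 ± 1.16 CPM in HEV control libraries. Adamts17 and Adamts10, proteases tied to fibrillin assembly, were lower by -7.15 ± 0.80 and -2.49 ± 0.42.

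Receptors split in both directions. Of 10 tested genes (of 11 listed) for integrins and the elastin receptor, 5 were lower and 2 higher in HEV cells. Itga5, the fibronectin-binding alpha chain, was at 168 ± 19.5 CPM in HEV and 49.2 ± 31.6 CPM in FRC control libraries. Ctsa, the cathepsin of the elastin receptor complex, differed by 0.54 ± 0.18. Itga8, Itgav and Itga9, alpha chains that bind matrix ligands, were lower by -9.01 ± 0.93, -2.32 ± 0.31 and -1.38 ± 0.33.

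Of 5 tested elastin-degrading proteases (of 9 listed), 3 were lower in HEV cells and 0 higher. Mmp2, a gelatinase, was at 1477 ± 150 CPM in FRC and 15.2 ± 7.23 CPM in HEV control libraries, Ctsk differed by -9.29 ± 0.81 and Mmp14 by -3.87 ± 0.72. Protease inhibitors split, with 2 of 6 higher and 2 lower. Timp4 was at 50.1 ± 20.2 CPM in HEV and 0.261 ± 0.663 CPM in FRC control libraries, and Timp3 was higher by 0.82 ± 0.26. Timp2 was lower by -3.16 ± 0.28 and Cst3, the secreted cysteine protease inhibitor, by -1.29 ± 0.16.

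Of 10 genes around Mgp function, vitamin K-dependent carboxylation and mineral control, 8 were lower and 0 higher. Bmp4, a growth factor that Mgp can bind, was at 1155 ± 567 CPM in FRC and 51.4 ± 24.2 CPM in HEV control libraries. Bmp2 differed by -8.69 ± 1.00 and Enpp1, which makes the mineralisation inhibitor pyrophosphate, by -9.41 ± 1.02. By edgeR no gene of these lists was called between PEG and control in either FRC or HEV cells. The share called was 0.00% of the 14595 genes tested in FRC and 0.00% of the 14308 tested in HEV cells. The absence of calls is therefore not particular to these lists.

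PEG within FRC cells is the contrast that contributed to the choice of the family, and its values follow as a description. Mgp ran from 2339 to 7550 CPM in control libraries, with a median of 4403, and from 1976 to 3425 CPM in PEG libraries, with a median of 2927. The groups overlapped over all libraries. Because the set of 8 index pairs repeats, libraries were assigned to 3 pools (pool 1 ends at library 8 and pool 2 at library 16), an inference that the labels do not state. Within every pool all PEG libraries lay below all control libraries for Mgp. PEG libraries held 1976 to 2042 CPM against 2339 to 2670 CPM in pool 1, 3031 to 3425 against 4403 to 4672 in pool 2, and 2927 to 3373 against 4823 to 7550 in pool 3. The fitted log2 difference was -0.52 ± 0.12 (SE), and -0.40 without FRC control library 21.

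Fbln1 ran from 654 to 1480 CPM in FRC control libraries and from 842 to 1937 CPM in FRC PEG libraries, with medians of 833 and 1058. PEG libraries lay above control libraries in pool 2 (842 to 1058 against 654 to 800 CPM) and pool 3 (948 to 1044 against 766 to 833 CPM), and overlapped with them in pool 1 (1410 to 1937 against 1342 to 1480 CPM). The fitted log2 difference was 0.34 ± 0.10 (SE).

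Mfap4 had the widest difference of the members, 0.59 ± 0.20 on the log2 scale (SE), and the groups were apart in pools 2 and 3. In pool 2 control libraries held 223 to 344 CPM and PEG libraries 552 to 680 CPM. In pool 3 they held 241 to 273 and 411 to 577 CPM. In pool 1 the ranges overlapped, 438 to 525 CPM in control and 333 to 540 CPM in PEG libraries. Among libraries 10 to 24 alone the difference was 1.06.

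**Figure D4:**
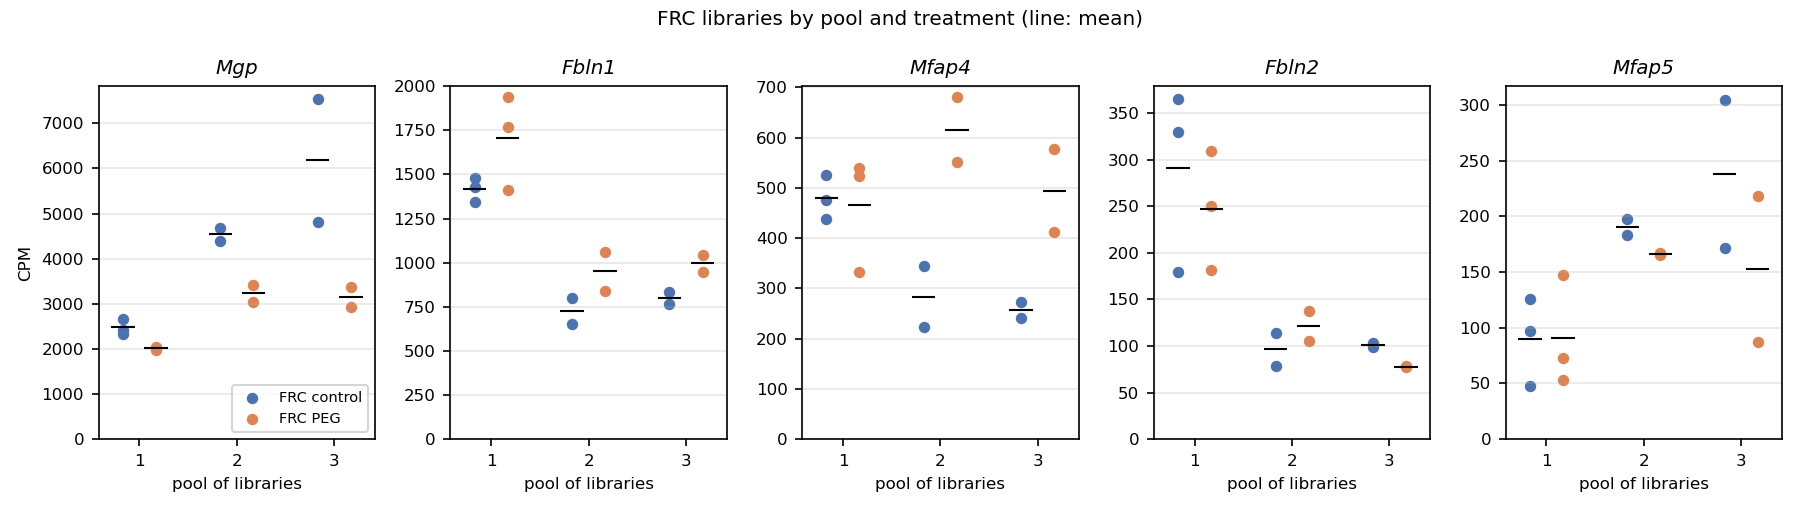
CPM of Mgp, Fbln1, Mfap4, Fbln2 and Mfap5 in each FRC library by pool, with control libraries in blue, PEG libraries in orange and the mean of each as a line. Mgp is lower in PEG than in control libraries in all 3 pools, Mfap4 is higher in pools 2 and 3 but overlaps in pool 1, and Fbln1 and Fbln2 are highest in pool 1.

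Fbn1, Mfap2 and Fbln5 had fitted differences of 0.25 ± 0.14, 0.26 ± 0.19 and 0.20 ± 0.10 on the log2 scale (SE), with PEG above control in pools 2 and 3 and overlapping in pool 1. With the i5 index as a further term Fbn1 was 0.40 and Mfap2 0.59. Eln differed by -0.32 ± 0.15, with PEG libraries below control libraries in pool 1 alone, 250 to 315 against 386 to 407 CPM. Emilin1 differed by -0.20 ± 0.14, with PEG below control in pool 3 alone, 546 to 633 against 976 to 1024 CPM, and by -0.40 among libraries 10 to 24 alone. Mfap5 differed by -0.20 ± 0.28, with PEG below control in pool 2 alone, and by -0.55 with the epithelial level as a term. Fbln2 differed by -0.09 ± 0.19, with PEG below control in pool 3 alone, and by 0.26 with the i5 index as a term. The sign of the within-pool difference was the same in all 3 pools for 6 of 10 members, and Mgp was the only member whose groups were apart in all 3 pools. The matching shares over all genes were not computed, and Mgp had been noted in this contrast beforehand. These counts therefore set neither the members nor Mgp apart from other genes.

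Of the 14595 genes tested in FRC cells, 0.00% were called by edgeR, and 6.78% had an unadjusted p under 0.05. Of all genes, 177 were called without a filter on low counts, 57 with DESeq2 and 26 with limma-voom. Epithelial markers, which sorted FRC cells should lack, summed to 45.2 to 2063 CPM in FRC control and 82.6 to 5190 CPM in FRC PEG libraries, and their part in these differences was not tested. The i5 index of the FRC PEG libraries is shared by 3 of the 7 FRC control libraries.

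The HEV contrast was not used to choose the family. The i5 index of all 6 HEV PEG libraries is shared by 2 of the 4 HEV control libraries. In HEV cells 0 of the 7 members tested passed between PEG and control by edgeR, beside 0.00% of 14308 genes called and 6.19% with an unadjusted p under 0.05, none of them a member. DESeq2 called 116 of all genes and no member, and an edgeR fit without the filter called 141 genes and no member. Mfap2, Mfap4 and Mfap5 did not pass the filter on low counts. The 4 members with the highest read counts in HEV cells had these differences. Eln differed by 0.29 (95% interval -0.29 to 0.86) and Fbln2 by 0.37 (-0.25 to 1.00) on the log2 scale. Fbln5 differed by 0.28 (-0.25 to 0.81) and Emilin1 by -0.80 (-1.67 to 0.07; adjusted p = 0.83). Fbn1 differed by 0.78 (-0.76 to 2.33), Mgp by -0.35 (-1.62 to 0.92) and Fbln1 by -0.52 (-4.29 to 3.24). All 7 intervals include 0, and those of Fbln1, Fbn1 and Mgp are wide. Fbn1 was 0.08 without HEV control library 9 and 1.60 without HEV control library 17.

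Fbln5 ran from 218 to 347 CPM in the 4 HEV control libraries and from 261 to 497 CPM in the 6 HEV PEG libraries, with medians of 286 and 386, and the groups overlapped. Without HEV control library 8 its fitted difference was 0.17. Fbln2 held 95.6 to 169 CPM in control and 69.0 to 265 CPM in PEG libraries, also overlapping. Its fitted difference was 0.14 without HEV control library 8 and 0.59 without HEV PEG library 23. Emilin1 held 41.1 to 168 CPM in control and 37.5 to 69.3 CPM in PEG libraries. The PEG value lay below the control value in pools 1 and 2, which hold 1 HEV control library each, and above it in pool 3. Without HEV control library 9 the fitted difference was -0.13.

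**Figure D5:**
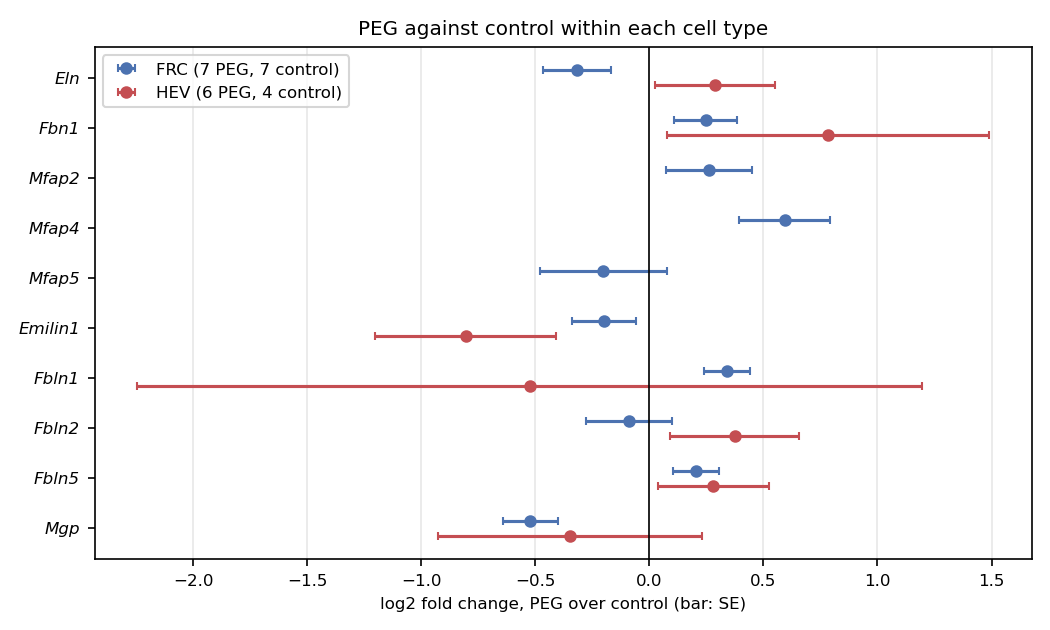
Fitted log2 fold change of PEG over control with its SE for each member, in FRC (blue; 7 PEG and 7 control libraries) and in HEV libraries (red; 6 PEG and 4 control). Mfap2, Mfap4 and Mfap5 have no HEV value because their counts did not pass the filter; FRC values are a description, because that contrast contributed to the choice of the family.

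The difference of the PEG effect, HEV minus FRC, includes the FRC contrast and is likewise a description. It was -5.70 ± 1.40 for Mfap4 (SE), -1.60 without HEV control library 9, which held nearly all of the HEV control reads of this gene, and 0.73 ± 0.34 for Eln. Of the 18203 genes tested for this difference, 0.0110% were called by edgeR.

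The pools themselves separated several members within FRC cells. This comparison was added after the data were seen. Between pool 1 (6 FRC libraries) and pools 2 and 3 (8 FRC libraries), with treatment as a term, edgeR called 3 members higher and 2 lower in pool 1. Of 15217 genes tested, 12.2% were called, 7.18% higher and 4.99% lower.

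Fbln2 ran from 180 to 365 CPM in pool 1 and from 77.6 to 137 CPM in pools 2 and 3, with no overlap (log2 difference 1.52 ± 0.19 SE; adjusted p = 9.11e-05, edgeR). Fbln1 ran from 1342 to 1937 and from 654 to 1058 CPM, also with no overlap (0.93 ± 0.10 SE; adjusted p = 3.55e-05, edgeR). Mgp ran from 1976 to 2670 and from 2927 to 7550 CPM, again with no overlap (-0.81 ± 0.12 SE; adjusted p = 0.00051, edgeR). For both Fbln1 and Mgp the pool difference was larger in size than the fitted PEG difference in FRC cells, and the gap between the 2 was not tested. For Fbln2, HEV control libraries held 114 against 180 to 365 CPM in FRC in pool 1, and 169 against 78.6 to 114 CPM in pool 2. In pool 3 they held 106 and 95.6 against 98.4 to 104 CPM. HEV PEG libraries lay wholly above FRC PEG libraries in pool 2 alone, at 188 to 227 against 105 to 137 CPM.

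Eln (0.46 ± 0.15 SE; adjusted p = 0.050, edgeR) and Mfap5 (-0.95 ± 0.29 SE; adjusted p = 0.040, edgeR) were called with overlapping ranges. When each of the 14 libraries was left out in turn, Eln lost the call in 13 fits and Mfap5 in 10, with adjusted p of up to 0.12 and 0.087. Among the 9 other alternatives Eln lost the call in 7, among them both other size factors, and Mfap5 in 2. Intestinal epithelial markers had a median log2 difference of -2.47 in the same comparison, with 10 of 10 tested markers lower in pool 1 and 0 called, and their part in the member differences was not tested. With the epithelial level of each library as a term, 2 members were called higher and 1 lower, and Eln (adjusted p = 0.40, edgeR) and Mfap5 (adjusted p = 0.33, edgeR) were not called. The pool is confounded with library order, and whether it marks a day, a run or a batch of mice is not given in the sources used here.

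As a set, members showed no common movement from library to library once group and pool means were removed, and no background of other gene pairs was computed. Over the 14 FRC libraries, the 45 pairs had Pearson correlations of log2(CPM + 1) from -0.71 (Mfap5 with Fbln5) to 0.72 (Mfap2 with Fbln2), with a median of 0.034. Of the 45 pairs, 2 had an absolute value above 0.5. Leaving out the 2 libraries farthest from the median changed single pairs. Mfap2 with Fbln2 became 0.54 and Mfap5 with Fbln5 -0.53. Other pairs then passed 0.5 in size, among them Mfap2 with Emilin1 (-0.68) and Eln with Mfap4 (0.65). The libraries share depth and pool, and these values are a description.

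Of all genes with a mean of at least 5 CPM in FRC cells, those most like Eln in the same libraries were Kmt5b (r = 0.86), Osgin1 (0.84) and Six5 (0.83). Those most like Fbln1 were Adcyap1r1 (0.91), Camkmt (0.88) and Dut (0.88). Those most like Mgp were Rps15 (0.91), Rabl2 (0.90) and Ndufa2 (0.89). They were picked as the highest of 11683 genes over 14 libraries, and leaving out the 2 libraries farthest from the median lowered the 9 values to between 0.47 and 0.81.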

How the data were processed

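Per the labels, cDNA was made by template switching, transposase libraries were sequenced as read pairs and uniquely mapped reads were kept. The submitters' processing notes name GSNAP as aligner and mm9 as build; the labels' protocol names a human build, and the gene numbers are those of mouse. Each file holds the authors' deposited read count for every gene model, and per the file headers an RPKM value scaled by the size factor of the library. RPKM was checked to be proportional to the count within 10335 genes and was used only to compare genes. The ratio of its length to annotated exon length lay within 1.5-fold of the median ratio for 84.2% of 9632 genes. The annotation behind the counts is not given in the sources used here.

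Gene numbers were matched to RefSeq symbols (GRCm38.p6) for 85.0% of models, holding 97.3% of reads. Counts were filtered with filterByExpr at a minimum of 10, normalised by TMM and compared by the two-sided edgeR quasi-likelihood test (edgeR 4.0.16, limma 3.58.1, R 4.3.3) with pool as covariate, on the libraries of the groups compared. p-values were Benjamini-Hochberg adjusted over all genes tested, with a call under 0.05. SE is the size of the log2 difference over the square root of F. CPM is the count scaled to one fixed total of all counts of a library. Sequences come from RefSeq, GRCm38.p6, which had entries for 6 of the 10 members.

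All 10 members are named throughout. Of each pathway list, named are up to 3 genes per direction called between HEV and FRC controls, of smallest p and at least 5 CPM. Genes like Eln, Fbln1 and Mgp are the 3 of highest correlation. Efemp1 and genes named only by a count of 5 or fewer lie outside this rule. The members and lists were chosen with earlier results of these data known.

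Alternatives were DESeq2 or submitters' size factors, no filter or a minimum of 50, DESeq2 1.42.0, limma-voom, other covariates (none, i5 index, epithelial level), all libraries in 1 model, libraries 10 to 24 alone and each library left out. The subset of libraries 10 to 24 also leaves out library 9 of pool 2, an HEV control. No libraries were identical. Labels do not say whether libraries are of separate mice throughout, so p-values measure the spread between libraries. Reads are PCR copies without molecular identifiers.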

Additional observations from a re-analysis of the deposited data

Results flagged for a closer look

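Of 40 groups of libraries (10 members in 4 groups), 5 had 1 library far from the others by Dixon's criterion. The usual rate of about 1 in 20 groups holds for normally spread values and not for counts near 0, so it gives no measure here. Where all other libraries hold 0, as for Mfap2 in HEV control libraries, the flag is certain. All 5 are genes close to 0 in HEV cells. Mfap2 had 0.466 CPM in HEV control library 9 and 0 in the other 3 libraries. Mfap4 had 13.4 CPM in the same library, against 0 to 0.341 CPM in the others. Mfap5 had 3.34 CPM in HEV control library 24, against 0 to 0.0682 CPM in the others. HEV PEG library 16, the library of lowest depth, had 0.642 CPM of Mfap4, against 0 to 0.0790 CPM in the others, and 1.61 CPM of Mfap5, against 0 to 0.138 CPM in the others. The values in library 16 are 2 and 5 reads.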

How the results depend on the processing

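The 9 members lower in HEV cells kept their direction under every alternative run, and kept the call except Fbln5 among controls of libraries 10 to 24 (-0.85, adjusted p = 0.067, edgeR), where 8 were called. Pool and i5 index together could not be fitted among PEG libraries. Scaling moved the median of all genes by less than 0.1 on the log2 scale in every comparison. No paired analysis was possible because library numbers are unique over the series. Fbln2 among controls, -0.03, was 0.050 with all libraries in 1 model, 0.12 among libraries 10 to 24, and -0.47 to 0.45 with a library left out. Among PEG libraries, 0 to 1 members were higher with a library left out.

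In HEV cells under PEG, Fbln1 (-0.52) was 0.40 with limma-voom, 1.94 with pool and i5 index, 2.75 among libraries 10 to 24, and -1.33 to 1.80 with a library left out, 1.80 being without HEV control library 9. Mgp (-0.35) was 0.31 with pool and i5 index and -0.82 to 0.30 with a library left out, 0.30 being without HEV control library 17. Emilin1 (-0.80) was 0.36 among libraries 10 to 24, where only libraries 17 and 24 remain of the HEV controls, both in pool 3. None was called under any of these, and the cause was not tested.

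The PEG contrast in FRC cells contributed to the choice of the family, so the member counts that follow are a record and support nothing. In FRC cells under PEG, 1 member was lower without the filter, 1 lower with limma-voom, and 1 higher and 1 lower with DESeq2. For the difference of the PEG effect, 1 member was lower with DESeq2 and 0 to 1 with a library left out. Of all genes, 3869 were called between HEV and FRC controls and 2276 among libraries 10 to 24. For PEG in HEV cells the number went from 0 to 141 without the filter, 116 with DESeq2 and 18 with all libraries in 1 model. For PEG in FRC cells it went from 0 to 177, 57 with DESeq2 and 26 with limma-voom. For the difference of the PEG effect it went from 2 to 38 without the filter, 360 with DESeq2, 0 with limma-voom, 5 with no covariate, 0 with pool and i5 index, 0 among libraries 10 to 24 and 1 to 16 with a library left out. Between pools it went from 1852 to 791 with the epithelial level as a term.

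Between pools, the number of members lower (2) was 1 with pool and i5 index, 1 with the epithelial level and 1 to 2 with a library left out. Fbn1 (0.02) was -0.0059 with DESeq2 size factors, -0.0017 with the submitters' size factors, -0.0074 with a count minimum of 50, -0.0060 with DESeq2 and -0.12 to 0.068 with a library left out. Mfap2 (-0.07) was -0.26 to 0.0085 with a library left out. HEV PEG library 16 has the lowest depth. Few HEV reads limit the size of the fitted HEV and FRC difference for Mfap2, Mfap4, Mfap5 and Fbln1, and PEG could not be compared with control in HEV cells for the 3 Mfap genes, which did not pass the filter.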
